A study of Homo sapiens with 24 samples.

Results

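The polysomal RNA of A2058 cells depleted for LSM14A and treated with hydroxyurea (HU) was compared with that of HU-treated cells that received a control siRNA. The comparison took all 6 of the 24 libraries of the series whose labels give polysomal RNA, HU and one of the 2 siRNAs, 3 for each siRNA. A2058 is a human cell line established from melanoma. The methods name it for this experiment, whereas a figure legend of the study names another melanoma line for the sequencing comparison. Cells received either a scrambled siRNA (siCTRL) or siRNA that targets LSM14A (siLSM14A), in the methods 20 nM of each siRNA, and both groups were treated with 10 mM HU for 2 h and with cycloheximide before lysis. The 6 polysomal libraries of the same siRNAs without HU (NT) and the 6 total RNA libraries of the HU groups were used beside them. RNA of heavy polysomes was taken from the dense fractions of a sucrose gradient, which the methods give as fractions 13 to 17 in one paragraph and as the 4 heaviest fractions in another, and total RNA came from the input. The labels number the replicates of each group from 1 to 3 without stating what a replicate is, so that the p-values measure the spread between these libraries. The word culture is used below for the source of 1 numbered replicate, without a claim that it was grown apart from the others.

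LSM14A is an RNA-binding protein of processing bodies, with an N-terminal LSm domain and RGG motifs, and is the human ortholog of yeast Scd6. It binds the helicase DDX6 and the translational repressor EIF4ENIF1, and it is known for keeping bound mRNAs out of translation. HU blocks ribonucleotide reductase, the enzyme that makes deoxynucleotides, and so stalls DNA replication forks. The amount of an mRNA in heavy polysomes depends both on how much of it the cell holds and on how many ribosomes it carries, and the comparison addresses which mRNAs are more or less abundant there when LSM14A is depleted in HU-treated cells.

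The 6 libraries held 30694272 to 38802414 counts, and 12256 protein-coding genes passed the filter on low counts, of 19086 in the table. Levels are given as CPM, the counts per 10 to the power of 6 counts of a library, after TMM scaling, and changes as log2 of siLSM14A over siCTRL from edgeR's quasi-likelihood test, with standard errors (SE). Markers of the melanocyte lineage summed to 3700 to 4550 CPM in siCTRL and 3510 to 4600 CPM in siLSM14A libraries, and none of these 17 genes was under 1 CPM in all 6. Of 8 leukocyte markers, 6 were under 1 CPM in all 6 libraries and 4 of them had no count, and the list summed to 1.92 to 3.05 CPM. The 8 keratinocyte and epithelial markers, of which 4 were under 1 CPM in all libraries, summed to 223 to 373 CPM, and the 7 fibroblast and endothelial markers found in the table, 3 of them under 1 CPM, to 20 to 40.3 CPM. The marker sums of the siRNA groups overlapped in each of these lists.

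The targeted mRNA fell in the heavy polysomes of all 3 depleted cultures. LSM14A (ENSG00000257103, chr19:34663409-34720193 in hg19) was at 29.2, 25.5 and 39.4 CPM in the 3 siCTRL cultures and at 2.1, 2.06 and 1.91 CPM in the 3 siLSM14A cultures, from 63 to 82 counts in the latter. The groups were far apart, and the mean fell from 31.3 ± 7.18 CPM (SD, n = 3) to 2.02 ± 0.101 CPM (SD, n = 3), which left 6.48% of the control level. The log2 change was -3.95 ± 0.217 (SE), with an adjusted p of 1.62e-06 in edgeR. The LSM14A level went with the siRNA label in all 6 libraries. In bulk RNA, fewer cells with the mRNA and less of it per cell cannot be told apart.

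At an adjusted p under 0.05, 8 of the 12256 genes changed in polysomal RNA, and all 8 were lower in LSM14A-depleted cells (0.0653% of the genes tested). No gene was higher at that threshold, whereas at an unadjusted p under 0.05 there were 403 higher genes (3.29%) and 208 lower genes (1.7%). DESeq2 called 22 genes, of which 2 were higher, and edgeR without the filter on low counts called 10, of which AMMECR1 was higher. With the replicate number as a block, edgeR called 40 genes, of which 16 were higher. Of the 8 genes, 7 are described here. The median log2 change over all genes was 0.01. The 3 libraries of one group lay wholly above the 3 of the other for 550 higher genes (4.49%) and 633 lower genes (5.16%). The known functions of the called genes described here span antigen transport, translation initiation, transcription by RNA polymerases II and III, and mitochondrial coenzyme Q.

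**Figure D1:**
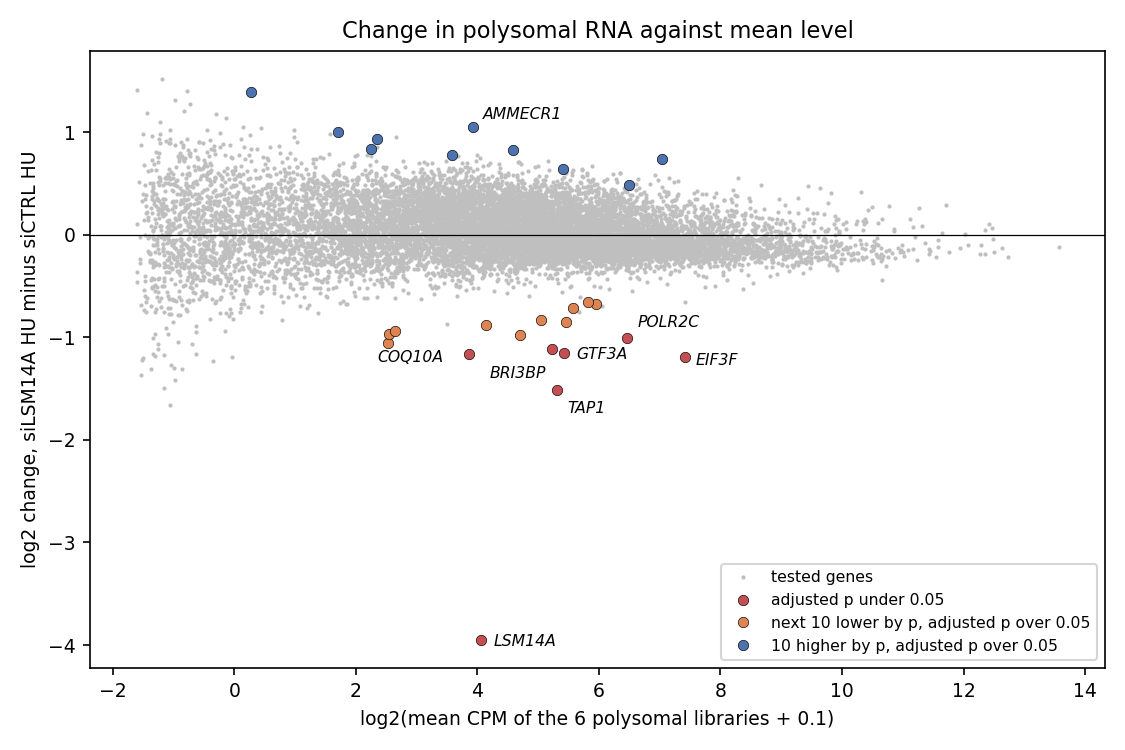
Log2 change in polysomal RNA, siLSM14A HU minus siCTRL HU, against log2 of the mean CPM of the 6 libraries plus 0.1, with 1 point per gene. LSM14A stands at -3.95, the other red genes at an adjusted p under 0.05 lie at or below -1.0, and the blue genes with the smallest p among the higher ones reach 1.39 without passing the threshold.

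TAP1, a subunit of the transporter that carries peptides into the endoplasmic reticulum for MHC class I, was at 60.8, 61.1 and 53.2 CPM in siCTRL cells. In siLSM14A cells it was at 17.9, 25.4 and 17.8 CPM. The groups did not overlap, and siLSM14A replicate 2 was the highest of its group. TAP1 fell by 1.52 ± 0.174 (SE) on the log2 scale, to 34.9% of the control level (adjusted p = 0.0049, edgeR).

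EIF3F encodes subunit f of eIF3, the complex that brings the small ribosomal subunit to the mRNA. It was at 224, 268 and 221 CPM in siCTRL cells and at 96.4, 110 and 106 CPM in siLSM14A cells. Every depleted culture was below every control, and the log2 change was -1.19 ± 0.143 (SE; edgeR adjusted p = 0.00611). Of the 40 initiation factors tested it was the only one called.

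GTF3A encodes TFIIIA, which RNA polymerase III needs for 5S rRNA genes, and POLR2C encodes the third largest subunit of RNA polymerase II. GTF3A was at 57.8, 64.3 and 54.9 CPM in siCTRL cells and at 24.5, 27.4 and 27.6 CPM in siLSM14A cells (log2 change -1.15 ± 0.143 SE, edgeR adjusted p = 0.00716). POLR2C was at 123, 120 and 109 CPM and at 55.7, 64.6 and 55.7 CPM (log2 change -1.0 ± 0.135 SE, edgeR adjusted p = 0.0141). In both genes the groups did not overlap, and 45% of GTF3A and 49.9% of POLR2C was left.

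COQ10A, a mitochondrial protein that binds coenzyme Q, was at 21.7, 21.5 and 17 CPM in siCTRL cells and at 8.98, 9.46 and 8.46 CPM in siLSM14A cells (log2 change -1.16 ± 0.173 SE, edgeR adjusted p = 0.0317). BRI3BP, a membrane protein that binds BRI3, was at 55.3, 47.6 and 50.2 CPM and at 19.6, 28.6 and 22.7 CPM (log2 change -1.11 ± 0.168 SE, edgeR adjusted p = 0.034). Neither gene overlapped between the groups. As with TAP1, the smallest loss of BRI3BP was in siLSM14A replicate 2.

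**Figure D2:**
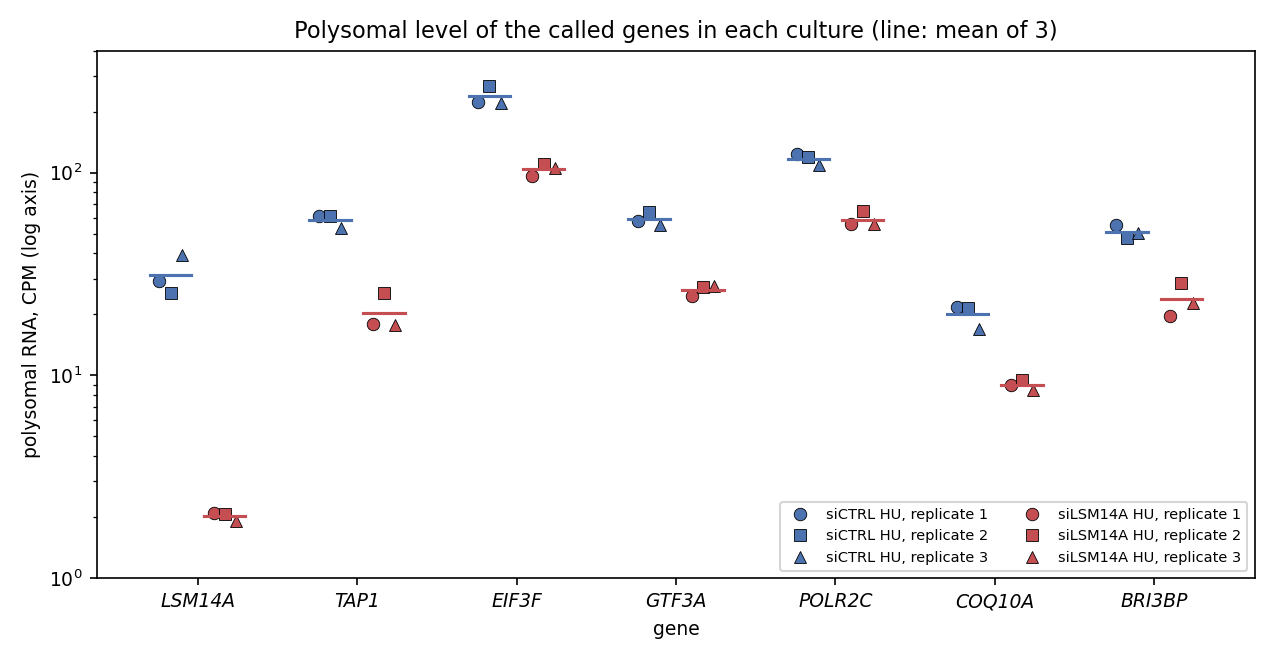
CPM in polysomal RNA (log axis) of 7 genes at an adjusted p under 0.05, with 1 symbol per culture (circle, square and triangle for replicates 1, 2 and 3), siCTRL HU in blue and siLSM14A HU in red, and a line at the mean of 3. In each gene the 3 red symbols lie below the 3 blue ones, and LSM14A fell from 31.3 to 2.02 CPM on average.

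The called mRNAs shared a short sequence that the choice of the comparison did not use. The word AACGGAG (searched on the mRNA strand only) was named by earlier work on total RNA of the same experiment, so that its matches are not independent of these changes. It lies in the canonical mRNA of 7 of the 8 called genes, LSM14A included, and in 8.68% of the 12209 tested genes that had a canonical mRNA in the annotation. The stretches of 29 bases around it are shown for 6 of these genes because they carry the feature that the genes have in common. They are written 5′ to 3′ on the mRNA strand, with the word in capitals and hg19 coordinates. In EIF3F, POLR2C, COQ10A and BRI3BP the word was in the 3′ UTR, and in LSM14A and GTF3A in the coding sequence. The LSM14A stretch crosses a splice junction, and the word itself is at chr19:34712414-34712420 (+ strand).
LSM14A, coding: tgacaatagagAACGGAGaccaacctggg
EIF3F, chr11:8017682-8017710, + strand: tgactctaataAACGGAGcctaccttttg
GTF3A, chr13:28009578-28009606, + strand: atctcgtgaaaAACGGAGtttggcctctc
GTF3A, chr13:28009655-28009683, + strand: ctttgtgtcaaAACGGAGagtcacccaac
POLR2C, chr16:57505045-57505073, + strand: gcttcagcaaaAACGGAGattcaggccag
COQ10A, chr12:56664649-56664677, + strand: tactgaacggaAACGGAGttgtctttgta
BRI3BP, chr12:125510021-125510049, + strand: cagaaaacgaaAACGGAGgaaaaaaaccc

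The word was then counted over all tested genes, the called ones included. Of the 260 tested genes with AACGGAG in the 3′ UTR, 29 were lower at an unadjusted p under 0.05 (11.2%, against 1.7% of all genes), and 2 were higher. Of the 706 genes with the word in the coding sequence and not in the 3′ UTR, 24 were lower (3.4%) and 24 were higher. Of the 94 genes with the word in the 5′ UTR or across a boundary, 3 were lower (3.19%), and of the 11149 genes without it, 152 (1.36%). The typical gene with the word moved little: the median log2 change was -0.06 for the 3′ UTR genes, 0.02 for the coding genes and 0.01 for all genes, and 37 of the 260 (14.2%) did not overlap between the groups in the lower direction, against 5.16% of all genes. The siRNA sequences are not given in the sources used here, and the part of these matches in the changes was not tested.

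The 10 lower genes with the next smallest p did not pass the threshold in the main edgeR fit, which had the siRNA as its only term. All 10 passed it in DESeq2 (adjusted p-values of 0.000299 to 0.025). They also passed in edgeR with the replicate number as a block (0.00192 to 0.027), although the numbers did not pair these libraries by the criterion given below. Chosen by their p, each was separate between the groups, as were 5.16% of all genes in this direction. They were GCNT2, GPR153, MYPOP, PEDS1, UQCC6, PACC1, STK40, UBAC1, BCL7B and LDAF1, with log2 changes of -0.65 to -1.06 and adjusted p-values of 0.113 to 0.332 in edgeR. GCNT2, which adds branches to poly-lactosamine chains on the cell surface, was at 45.6, 41.6 and 39.2 CPM in siCTRL cells and at 23.3, 23.5 and 24.6 CPM in siLSM14A cells (log2 change -0.82). GPR153, an orphan receptor, was at 32.6, 38.1 and 32.6 CPM and at 15.5, 21.4 and 15.7 CPM (log2 change -0.98). MYPOP, a Myb-related repressor of transcription, was at 7.39, 7.89 and 7.73 CPM and at 3.57, 4.11 and 3.4 CPM (log2 change -1.06). In each of these genes every depleted culture was below every control, and GPR153 was highest in replicate 2 of both groups.

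The remaining lower genes of this group had varied roles. UQCC6, an assembly factor of respiratory complex III, was at 7.78, 7.87 and 7.26 CPM in siCTRL cells and at 3.92, 3.42 and 4.34 CPM in siLSM14A cells (log2 change -0.97). PACC1, a chloride channel opened by protons, was at 22.9, 20.7 and 24.7 CPM and at 10.2, 13.8 and 13 CPM (log2 change -0.88). LDAF1, which helps to form lipid droplets, was at 9.23, 8.09 and 6.91 CPM and at 3.77, 4.84 and 4.06 CPM (log2 change -0.94). PEDS1, the desaturase that makes plasmalogens, had a log2 change of -0.85 ± 0.166 (SE). STK40 had one of -0.71, UBAC1, a subunit of a ubiquitin ligase, of -0.67, and BCL7B, a subunit of BAF chromatin remodelling complexes, of -0.65. The word AACGGAG was in 5 of these 10 mRNAs, GPR153, PACC1 and BCL7B in the 3′ UTR and GCNT2 and UQCC6 in the coding sequence.

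The 10 higher genes with the smallest p were AMMECR1, NAP1L5, GBP1, CCND1, IFIT1, MCC, MET, HTR2B, GNE and ANKRD30B, and none of them carried the word. None passed the threshold in the main edgeR fit, with the filter on low counts and the siRNA as its only term. With the replicate number as a block, edgeR called AMMECR1, MCC, CCND1, GBP1, NAP1L5 and MET (adjusted p-values of 0.00166 to 0.0468). DESeq2 called AMMECR1 (adjusted p = 0.000325) and GBP1 (adjusted p = 0.0493). AMMECR1 had the smallest p of all higher genes. It was at 9.51, 8.17 and 11.9 CPM in siCTRL cells and at 20.2, 17.2 and 23.7 CPM in siLSM14A cells, with a log2 change of 1.05 ± 0.195 (SE) and an adjusted p of 0.149 in edgeR. The depleted cultures were all above the controls. CCND1, which encodes cyclin D1 of the G1 phase, was at 78.7, 94.2 and 123 CPM and at 158, 140 and 197 CPM (log2 change 0.74 ± 0.184 SE, edgeR adjusted p = 0.698). MET, the receptor of hepatocyte growth factor, was at 29.1, 28.6 and 41.2 CPM and at 48.4, 53.5 and 53 CPM (log2 change 0.65). For both genes siCTRL replicate 3 was the control nearest to the depleted cultures.

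GBP1 and IFIT1 are genes induced by interferon. GBP1 was at 9.78, 7.5 and 9.09 CPM in siCTRL cells and at 16.1, 16.2 and 12.9 CPM in siLSM14A cells (log2 change 0.78, edgeR adjusted p = 0.543), and IFIT1 at 3.9, 3.32 and 2.76 CPM and at 6.93, 5.38 and 5.52 CPM (log2 change 0.84, edgeR adjusted p = 0.739). GNE, the first enzyme of sialic acid synthesis, was at 75.3, 71.1 and 77.9 CPM and at 97.6, 106 and 112 CPM (log2 change 0.49). These 3 genes did not overlap between groups, and GNE had the smallest spread within groups for its level. MCC had a log2 change of 0.83, HTR2B, a serotonin receptor, of 0.93 and NAP1L5, of the nucleosome assembly protein family, of 1.00. ANKRD30B had the largest log2 change of the 10, 1.39 ± 0.370 (SE), at low levels of 0.363 to 0.919 CPM in siCTRL and 1.14 to 2.06 CPM in siLSM14A libraries.

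LIG4, RTEL1 and HPRT1 are the mRNAs that the study followed across gradient fractions by RT-qPCR. It compared LSM14A-depleted cells with and without HU there, and reported a slight shift of LIG4 and RTEL1 to heavy fractions. More RTEL1 protein was also reported on LSM14A knockdown under HU. The contrast here is another one, siLSM14A against siCTRL with HU, and none of these mRNAs passed the threshold in it. LIG4, the ligase of non-homologous end joining, was at 9.07, 7.5 and 11.3 CPM in siCTRL cells and at 13.8, 10.4 and 13.5 CPM in siLSM14A cells. The groups overlapped, and its log2 change was 0.44 (95% confidence interval 0.00 to 0.88, edgeR adjusted p = 0.739). RTEL1, a helicase that unwinds recombination intermediates and telomere loops, was at 0.522, 0.335 and 0.444 CPM and at 0.641, 1.61 and 0.728 CPM, from 12 to 51 counts. The high value was that of siLSM14A replicate 2 alone. Its log2 change was 1.18 (95% confidence interval 0.26 to 2.09, edgeR adjusted p = 0.739), and without that culture it was 0.64. RTEL1 shares its locus with a read-through transcript into TNFRSF6B, so that its count is uncertain. HPRT1, of purine salvage, was at 40, 34.7 and 38.1 CPM and at 41.2, 35.4 and 44.6 CPM, with a log2 change of 0.10 (95% confidence interval -0.22 to 0.43).

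The called genes were also lower in total RNA of siLSM14A cells in the same HU-treated condition. All 8 genes were called there too, with log2 changes of -0.72 to -3.67. In total RNA 70 of 12475 genes were lower (0.561%) and 30 higher (0.24%) at an adjusted p under 0.05 in edgeR, and 855 genes were called with the replicate number as a block. By the criterion given below the replicate numbers paired these total RNA libraries, so that the fit without the block leaves a pairing out. EIF3F in total RNA was at 211 CPM in each of the 3 siCTRL libraries and at 101, 106 and 106 CPM in the siLSM14A libraries, a log2 change of -1.02 against -1.19 in polysomes. TAP1 had a log2 change of -1.29 in total RNA, GTF3A of -1.03, BRI3BP of -1.07, COQ10A of -0.73 and POLR2C of -0.72. Each of these genes thus fell in both kinds of RNA.

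Polysomal RNA relative to total RNA is the quantity that the study calls translation efficiency. The study's plot of it compared cells with and without HU, by the tool Xtail. Here siLSM14A was compared with siCTRL in HU-treated cells, as the interaction of fraction and siRNA over 12 libraries. No gene passed an adjusted p under 0.05 in edgeR or in DESeq2, and the smallest adjusted p in edgeR was 0.778. The fit treated the 12 libraries as independent. A pairing of total and polysomal RNA from the same culture was not modelled, so that its effect on these p-values is not known. At an unadjusted p under 0.05, 376 of 12649 genes were higher (2.97%) and 111 lower (0.878%). The 95% confidence interval of this difference was -0.77 to 0.20 (log2) for LSM14A, -0.64 to 0.18 for TAP1, -0.46 to 0.11 for EIF3F and -0.41 to 0.15 for GTF3A. It was -0.57 to 0.00 for POLR2C, -0.90 to 0.03 for COQ10A and -0.43 to 0.35 for BRI3BP. The difference was below 0 for all 8 called genes, and 2 of them had an unadjusted p under 0.05 in edgeR. These genes had been chosen for their change in the same polysomal libraries. For LIG4 the difference was 0.50 (95% confidence interval 0.02 to 0.98), for RTEL1 1.09 (-0.01 to 2.19) and for HPRT1 0.19 (-0.13 to 0.51). NAP1L5 had a log2 change of -0.01 in total RNA and of 1.00 in polysomal RNA, a difference of 1.01, and ANKRD30B one of 0.01 and of 1.39, a difference of 1.38, both at an edgeR adjusted p of 0.778.

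**Figure D3:**
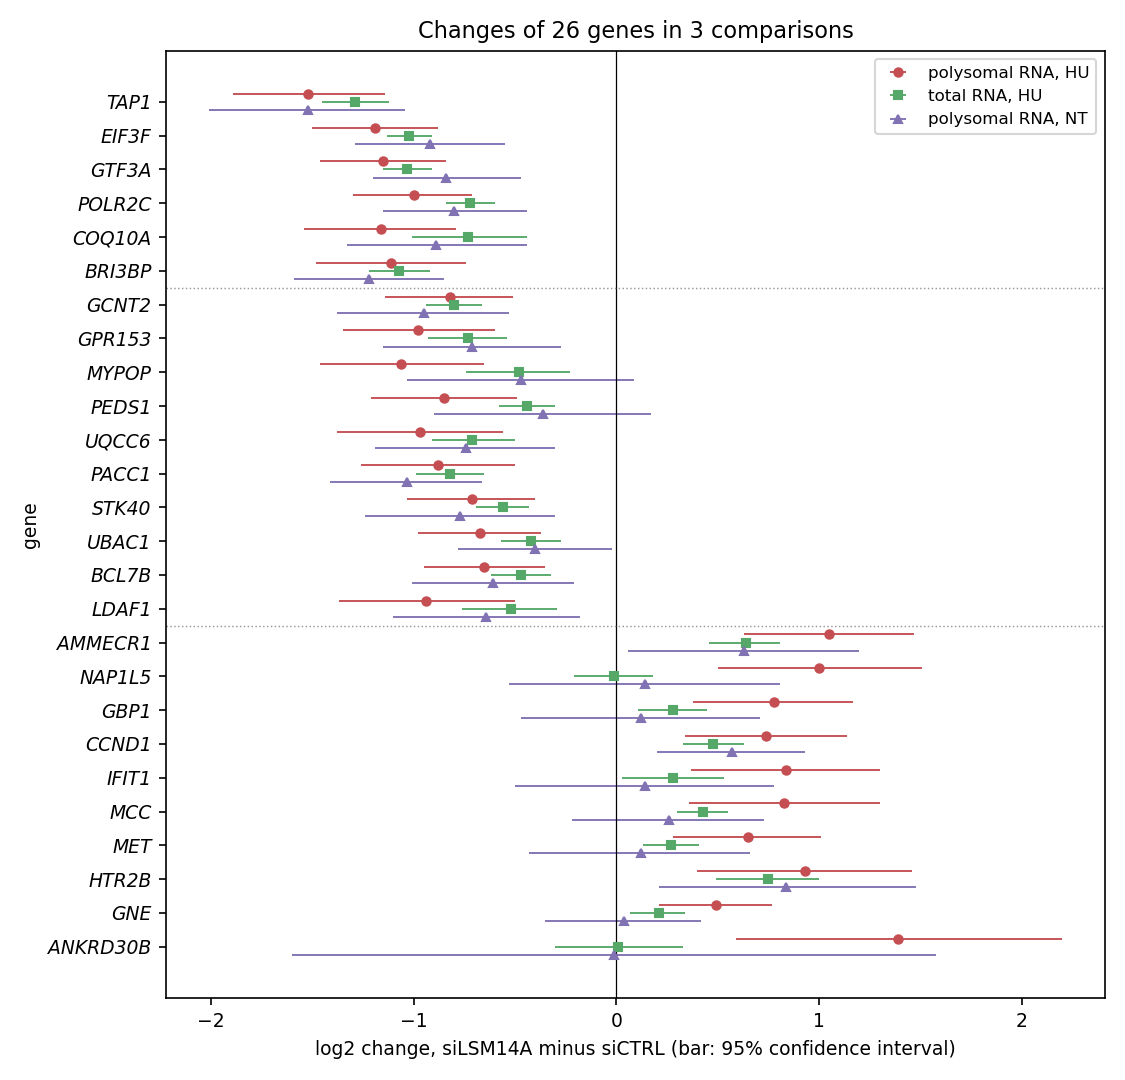
Log2 change, siLSM14A minus siCTRL, with 95% confidence intervals, of 26 genes in polysomal RNA with HU (red circles), total RNA with HU (green squares) and polysomal RNA without HU (purple triangles), from the called genes at the top through the next 10 lower to the 10 higher genes. The points of the lower genes lie below 0 in all 3 comparisons, whereas NAP1L5 and ANKRD30B, at 1.00 and 1.39 in polysomal RNA with HU, lie at -0.01 and 0.01 in total RNA.

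Cells that were not treated with HU gave the same direction for every called gene. In polysomal RNA of NT cells 2 of 12342 genes were called, both lower (0.0162%) and both among the 8, and 74 higher genes (0.6%) and 168 lower genes (1.36%) had an unadjusted p under 0.05. LSM14A was at 30.8, 39.8 and 49.8 CPM in siCTRL NT and at 2.47, 1.7 and 1.6 CPM in siLSM14A NT cells. The log2 change was -4.38 for LSM14A, -1.52 for TAP1, -1.22 for BRI3BP, -0.92 for EIF3F, -0.89 for COQ10A, -0.84 for GTF3A and -0.80 for POLR2C. All 8 genes were lower there at an unadjusted p under 0.05.

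The difference between the change with HU and the change without it was tested over the 12 polysomal libraries. No gene passed in edgeR or DESeq2, with a smallest edgeR adjusted p of 0.954, and 134 of 12515 genes had an unadjusted p under 0.05 (1.07%). The difference was 0.45 ± 0.326 (SE) for LSM14A, 0.02 ± 0.279 for TAP1, -0.25 ± 0.207 for EIF3F, 0.13 ± 0.225 for BRI3BP and 0.44 ± 0.338 for AMMECR1. RTEL1 had a difference of 1.90 ± 0.639 (SE), with a log2 change of -0.70 in NT and 1.18 in HU cells and an edgeR adjusted p of 0.954. No change described above can therefore be called particular to HU-treated cells.

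The call of each gene described above other than LSM14A was lost without at least 1 culture. With 1 library left out in turn, 4 genes were called without siCTRL replicate 1, 2 without siCTRL replicate 2, 7 without siCTRL replicate 3, 3 without siLSM14A replicate 1, 8 without siLSM14A replicate 2 and 5 without siLSM14A replicate 3. LSM14A was called in all 6 of these fits, TAP1 in 5, EIF3F in 4, GTF3A in 3, POLR2C in 2, and COQ10A and BRI3BP in 1 each. The size of the change barely moved: it stayed between -1.43 and -1.71 for TAP1, -1.10 and -1.24 for EIF3F, -1.09 and -1.20 for GTF3A, -0.97 and -1.08 for POLR2C, -1.11 and -1.27 for COQ10A, and -0.99 and -1.28 for BRI3BP. Each of the 7 genes kept an unadjusted p under 0.05 in all 6 fits. The only gene newly called was GPR153, without siLSM14A replicate 2. The culture whose removal most raised the adjusted p of EIF3F was siLSM14A replicate 1 (0.13), and that of BRI3BP siCTRL replicate 1 (0.377).

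**Figure D4:**
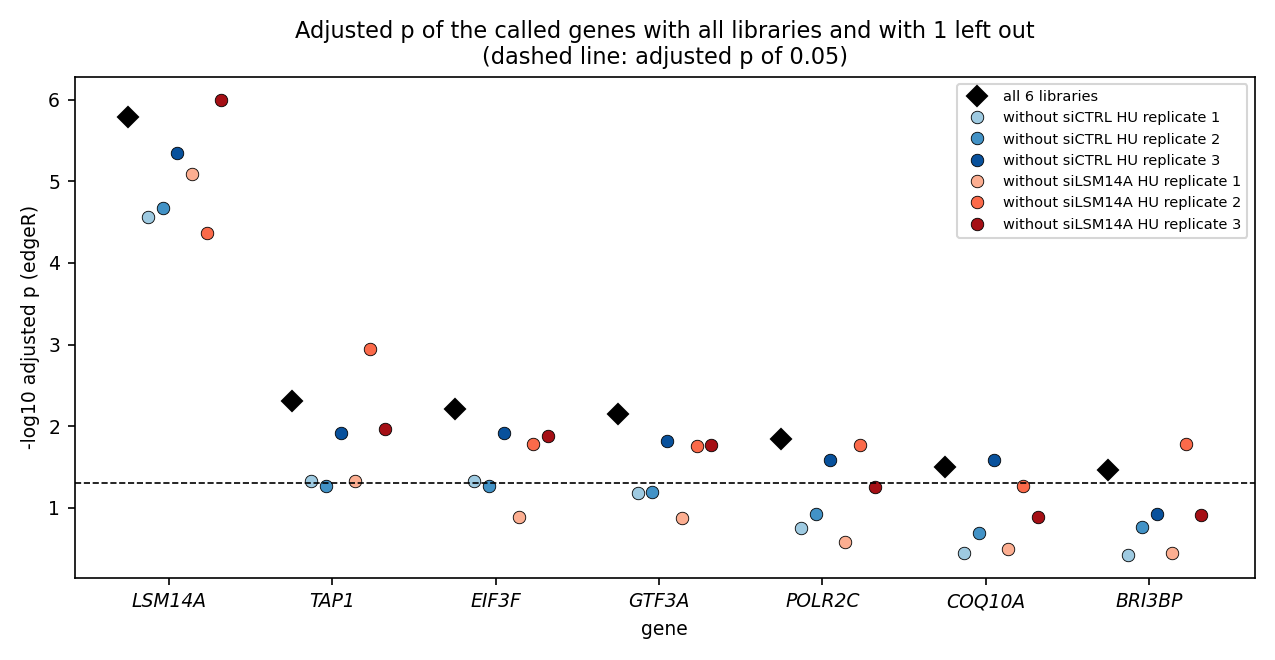
Minus log10 of edgeR's adjusted p for 7 genes with all 6 libraries (black diamonds) and with each library left out (circles, blue for siCTRL and red for siLSM14A), with the dashed line at an adjusted p of 0.05. LSM14A stays above the line in all 6 fits and TAP1 in 5, whereas COQ10A and BRI3BP stay above it in 1 each.

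Most genes at an unadjusted p under 0.05 lost it when at least 1 library was left out. Such fits hold fewer libraries, so that a loss does not by itself show dependence on 1 culture. Of the 403 higher genes at an unadjusted p under 0.05, 47 (11.7%) stayed there with every library left out in turn, against 53 of the 208 lower genes (25.5%), and the difference of these shares was not tested. Without siCTRL replicate 2, 99 of the 403 stayed, and without siLSM14A replicate 2, 365. Over all genes, 1441 were higher at an unadjusted p under 0.05 in edgeR without siLSM14A replicate 2. Without siCTRL replicate 3, 1414 were. Leaving out 1 of the other libraries gave 121 to 221 higher genes. Of the 10 higher genes named above, all kept an unadjusted p under 0.05 in the 6 fits. They had been chosen for the smallest p with all libraries, which favours this. LIG4, at an unadjusted p of 0.0508 in edgeR with all libraries, was under 0.05 in 2 of the 6 fits, with log2 changes of 0.30 to 0.60.

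A base composition trend went with the higher and lower genes, and it differed between cultures. Across the 12256 genes the log2 change had a Spearman correlation of -0.63 with the GC content of the exons, a description over genes that share the same 6 libraries. The genes were cut into 5 bins of equal size by GC content. The bin with the lowest GC content (31 to 40.7%) had a median log2 change of 0.26 and held 224 of the 403 higher genes, and the bin with the highest (57.7 to 76%) had one of -0.16 and held 105 of the 208 lower genes. Against the mean of siCTRL, the median of the lowest bin was 0.34 in siLSM14A replicate 1 and 0.44 in replicate 3, but -0.03 in replicate 2. Over the 9 pairs of 1 siLSM14A with 1 siCTRL library the correlation ran from -0.68 to 0.28, and it was above 0 only for siLSM14A replicate 2, against siCTRL replicates 1 and 3. In total RNA of the HU groups the correlation was 0.19, and in polysomal RNA of NT cells -0.04.

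**Figure D5:**
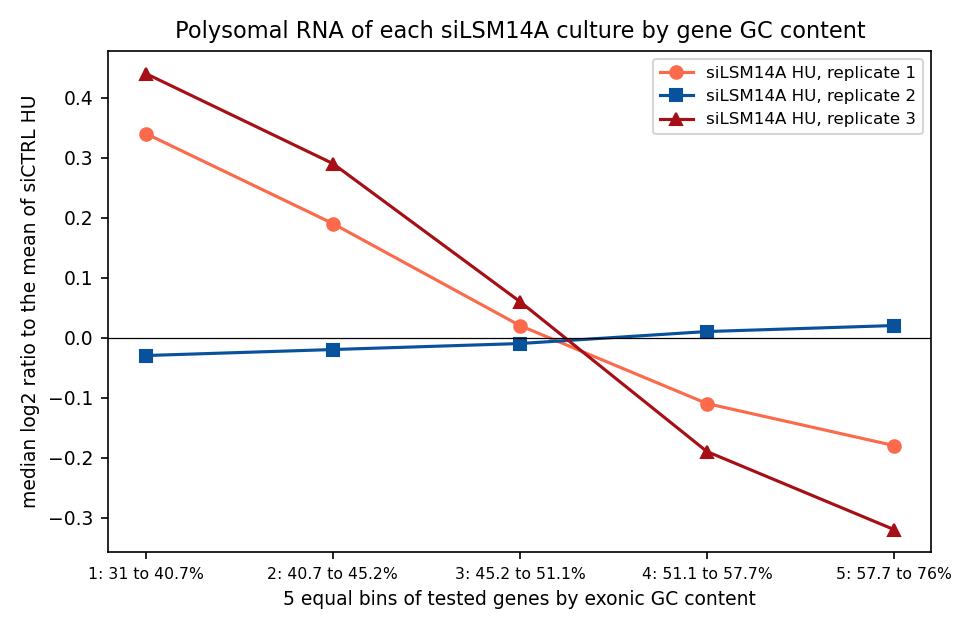
Median log2 ratio of each siLSM14A HU polysomal library to the mean of the 3 siCTRL HU libraries, for 5 bins of the tested genes by exonic GC content, with 1 line per culture. Replicates 1 and 3 run from 0.34 and 0.44 in the lowest bin to -0.18 and -0.32 in the highest, and replicate 2 stays between -0.03 and 0.02.

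With each library's GC trend removed by offsets, 10 genes were called, all lower. The 8 genes stayed among them, and GCNT2 (adjusted p = 0.0277, edgeR) and UQCC6 (adjusted p = 0.0428, edgeR) were added. TAP1 then had a log2 change of -1.41, EIF3F of -1.33 and AMMECR1 of 0.89. LIG4 had one of 0.28, RTEL1 of 1.34 and HPRT1 of 0.01. The number of higher genes at an unadjusted p under 0.05 went from 403 to 271, and of lower genes from 208 to 234.

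The partners of LSM14A in mRNA storage and decay showed no call. Of 13 tested genes for P-body repression and decapping, 8 were higher and 5 lower, with a median log2 change of 0.14. DDX6, the helicase that LSM14A binds, was at 56.7, 35.5 and 51.1 CPM in siCTRL and 60.2, 61.9 and 61.8 CPM in siLSM14A cells (log2 change 0.36, edgeR adjusted p = 0.739), and DCP2, the decapping enzyme, had a log2 change of 0.34. The genes LSM1 to LSM8, for Sm-like proteins that form RNA-binding rings, had log2 changes below 0 in 8 of 8 cases. Their median was -0.14 against 0.01 for all genes (-0.30 with the GC correction described above). It was -0.02 in total RNA of HU cells and 0.03 in polysomal RNA of NT cells. LSM7 had the lowest, -0.46 ± 0.179 (SE), and LSM6 one of -0.37. Medians were 0.04 over 15 deadenylase genes, with CNOT4 at 0.37 and CNOT2 at 0.29, 0.14 over 12 genes for Argonaute proteins, TNRC6 and small RNA processing, with TNRC6A at 0.54 and AGO3 at 0.45, and 0.16 over 16 stress granule genes, with FXR1 at 0.39 and TIA1 at 0.28. With 1 library left out, the medians ran from 0.05 to 0.25 for P-body genes, -0.01 to 0.13 for deadenylases, 0.07 to 0.30 for the Argonaute list and 0.05 to 0.20 for stress granule genes. With the GC correction these medians were 0.08, -0.03, 0.12 and 0.02, in the same order.

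Cytosolic ribosomal protein genes lay on the lower side without a call. All 78 tested cytosolic ribosomal protein genes had log2 changes below 0, from -0.03 to -0.39 with a median of -0.23, whereas 5962 of all 12256 genes did. RPL26 alone had an unadjusted p under 0.05 (log2 change -0.39). RPS20 was at 752, 906 and 570 CPM in siCTRL and 578, 595 and 553 CPM in siLSM14A cells. As for RPS20, the controls differed among themselves: the median over the 78 genes, against the mean of siCTRL, was -0.02, 0.24 and -0.26 in siCTRL replicates 1, 2 and 3, and -0.24, -0.17 and -0.30 in the siLSM14A replicates. Over the 9 pairs of libraries it ran from -0.55 to 0.08, and the change was -0.10 without siCTRL replicate 2 and -0.34 without siCTRL replicate 3. In polysomal RNA of NT cells the median was 0.20, and in total RNA of HU cells 0.01.

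Other factors of translation had smaller medians. It was -0.03 over 40 initiation factors, with EIF3F called and EIF4E2, a cap-binding repressor, at -0.30. It was -0.10 over 11 elongation and termination factors, of which ABCE1, which splits ribosomes, had a log2 change of 0.42 and ETF1, which reads stop codons, one of 0.21. It was -0.09 over 27 genes of endoplasmic reticulum translocation, where SRP54 had a log2 change of 0.53 and SEC62 one of 0.49. With 1 library left out, these 3 medians ran from -0.09 to 0.04, -0.24 to 0.02 and -0.11 to -0.04.

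Mitochondrial genes are encoded in the nucleus or in the mitochondrial genome. Of 39 nuclear genes for respiratory chain subunits, 36 had log2 changes below 0 (median -0.15), as did 51 of 69 genes for mitochondrial ribosomal proteins (median -0.12), and none was called. Without siCTRL replicate 2 these medians were -0.04 and -0.02, without siCTRL replicate 3 they were -0.25 and -0.18, and in polysomal RNA of NT cells they were 0.11 and 0.13. NDUFA1 had a log2 change of -0.31, COX6C of -0.27, MRPL33 of -0.38 and MRPL19 of 0.40. The mRNAs encoded in the mitochondrial genome had log2 changes above 0 in 12 of 13 cases (median 0.09), but the direction depended on the cultures. MT-CO1, a cytochrome c oxidase subunit, was at 1140, 1280 and 4340 CPM in siCTRL and 2230, 2060 and 3790 CPM in siLSM14A cells (log2 change 0.26 ± 0.431 SE), and MT-CO3 had a log2 change of 0.15. The high control was siCTRL replicate 3, without which the median of the list was 0.77. It was -0.21 without siCTRL replicate 1, -0.09 without siCTRL replicate 2 and -0.10 without siLSM14A replicate 3.

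Genes of the response to stalled replication showed no call. Medians were 0.09 over 12 genes of non-homologous end joining, 0.17 over 19 genes of the replication checkpoint, 0.06 over 25 genes of homologous recombination and the Fanconi anemia pathway, -0.01 over 16 genes of deoxynucleotide supply and -0.01 over 33 genes of replication licensing and forks. With 1 library left out, the first 3 of these medians ran from 0.01 to 0.16, from 0.03 to 0.22 and from 0.05 to 0.11. The lowest values for end joining and the checkpoint were without siLSM14A replicate 3. The GC correction gave 0.09 for end joining, 0.07 for the checkpoint and -0.02 for homologous recombination and the Fanconi anemia pathway. DCLRE1C, which encodes the nuclease Artemis of end joining, was at 5.36, 5.05 and 5.7 CPM in siCTRL and 9.39, 7.44 and 8.58 CPM in siLSM14A cells. The groups were separate, with a log2 change of 0.66 ± 0.185 (SE) and an edgeR adjusted p of 0.739. TOPBP1, an activator of ATR, had a log2 change of 0.44, RBBP8 of 0.46 and MRE11 of 0.38, both of DNA end resection. SAMHD1, which degrades deoxynucleotides, had one of 0.36 and TK2 one of -0.27, and the polymerase subunit POLA1 and the origin protein ORC2 had 0.30 and 0.27. With the GC correction DCLRE1C had a log2 change of 0.52, TOPBP1 of 0.30, RBBP8 of 0.32 and MRE11 of 0.19.

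The mitotic and G2/M list had a median of 0.20, with 13 of 20 genes above 0. NDC80, of the outer kinetochore, was at 22.5, 22.7 and 22.6 CPM in siCTRL and 36, 28.2 and 29.7 CPM in siLSM14A cells (log2 change 0.47, edgeR adjusted p = 0.739), and KIF23, of cytokinesis, had a log2 change of 0.54. The median exonic GC content of this list was 40.9%, against 47.8% over all genes, and with the GC trend removed its median was 0.10, against 0.12 to 0.22 with 1 library left out. Zinc finger genes of the ZNF series had log2 changes above 0 in 230 of 361 cases (median 0.11, 0.07 with the GC trend removed, and 0.04 to 0.17 with 1 library left out). Over the lists of stress genes the median was -0.08 for 20 genes of the integrated stress and unfolded protein responses, with PHGDH at -0.29 and HSP90B1 at 0.27, and 0.03 for 18 heat shock genes, with HSPE1 at -0.51 and HSF1 at -0.28.

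Genes of melanoma identity showed no call. The median was 0.00 over 17 genes of the melanocyte lineage and 0.01 over 11 genes of dedifferentiated melanoma, and without siLSM14A replicate 2 it was -0.11 and -0.08. PAX3, a transcription factor of the lineage, was at 12.2, 11.8 and 14.4 CPM in siCTRL and 17.5, 16.2 and 21.8 CPM in siLSM14A cells. The groups did not overlap, and the log2 change was 0.54 ± 0.178 (SE; edgeR adjusted p = 0.739). TNC, of the matrix, had a log2 change of 0.24, and WNT5A, at under 0.4 CPM in all 6 libraries, one of -0.68. The 23 collagen, laminin and integrin genes had a median of 0.16, with ITGB3 at 0.30 and COL3A1 at 0.61. This median was 0.10 without siCTRL replicate 2, 0.36 without siCTRL replicate 3 and -0.23 in polysomal RNA of NT cells. Of the markers of other cell types that passed the filter, KRT10 had a log2 change of -0.24, KRT18 of -0.22, LYZ of 0.53, CD14 of -0.79, LUM of 0.42 and DCN of 0.32, and none was called. The medians were -0.14 over 4 keratinocyte and epithelial markers, -0.13 over 2 leukocyte markers and 0.13 over 5 fibroblast and endothelial markers.

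CCDC117 and KCTD2 had been named from total RNA with AMMECR1, CCND1, MCC, BRI3BP and EIF3F. CCDC117 was at 19.9, 15.3 and 19.2 CPM in siCTRL and 27.5, 23.7 and 30.5 CPM in siLSM14A cells (log2 change 0.59 in polysomal RNA and 0.43 in total RNA). KCTD2, an adaptor of cullin ubiquitin ligases, was at 42.3, 45.3 and 38.7 CPM and at 54.7, 54.9 and 51.1 CPM (log2 change 0.35 and 0.50). Both were separate between the groups in polysomal RNA without passing the threshold there, at an edgeR adjusted p of 0.739, and both passed it in total RNA, at 0.024 for CCDC117 and 0.00126 for KCTD2. With the replicate number as a block, edgeR gave adjusted p-values of 4.05e-08 and 2.97e-11 in total RNA.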

How the data were processed

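The authors trimmed the reads (Trim Galore), aligned them to hg19 with STAR 2.6.1a and counted them per gene on Gencode v34, and the deposited values are raw counts without normalization, 24789280 to 44897501 per library. Stranded, poly(A)-selected libraries were read in pairs of 100 bases. The table held 20345 genes, of which 19086 were protein-coding in the Gencode annotation of GRCh37 used here, and 708 were not in it. The test was that of edgeR 4.0.16 under R 4.3.3 (quasi-likelihood F-test, TMM, filterByExpr with a minimum count of 10 and a total of 15), with the siRNA as the only term. P-values were adjusted by Benjamini-Hochberg over all genes tested. DESeq2 1.42.0 and limma 3.58.1 (voom with sample quality weights) were alternatives, and the tests were checked on simulated data. The GC correction used a loess curve of log2 CPM on exonic GC content (span 0.3) per library as offsets.

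Samples were grouped by their labels. The genes named were LSM14A, the called genes, the 10 next by p in each direction, the 3 that the study followed, 7 named in earlier work on total RNA, and up to 2 per list by p. The members and lists were chosen with earlier results of these data known. Results for 2 genes that this rule gives and 1 sequence are not reported here, although the genes stayed in every fit and count. Replicates of a group differed by more than sampling noise (chi-square per gene of 38.81 to 113.82). The replicate numbers were taken to pair libraries where all 3 same-numbered deviations correlated above 0.1. This held for total RNA with HU (0.36, 0.19 and 0.31) but not for polysomal RNA with HU (0.05, 0.36 and 0.48) or without it (-0.46, 0.30 and -0.41). Deviations of differently numbered libraries correlated at -0.41 to 0.10 in polysomal RNA with HU. The criterion cannot show that the numbers carry no pairing there. mRNA sequences were those of the annotation's canonical transcripts on the GRCh37 genome.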

Additional observations from a re-analysis of the deposited data

How the results depend on the processing

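For polysomal RNA of HU-treated cells, edgeR called 8 genes with RLE size factors, with at least 10 counts in every library, with all genes of the table and with all 12 polysomal libraries in one fit, and 10 without the filter on low counts and 10 with the GC correction. DESeq2 called 22 genes, the replicate block 40 (16 higher), the replicate block with GC correction 17 (3 higher) and limma-voom with sample quality weights 951 (774 higher), where the weights ran from 0.399 for siLSM14A replicate 2 to 4.57 for siLSM14A replicate 1. The cause of these differences was not tested. The replicate numbers did not pair these libraries by the criterion used, and not every library correlated best with its own number. All 8 called genes were among the calls of each of these settings. With 1 library left out, 2 to 8 genes were called. For total RNA, DESeq2 called 189 genes and the replicate block 855, against 100, and 46 to 101 genes were called with 1 library left out, fewest without siCTRL replicate 2 (46), siLSM14A replicate 2 (55), siLSM14A replicate 1 (59) and siLSM14A replicate 3 (61). For polysomal RNA without HU, DESeq2 called 8 genes and the fit without the filter 4, against 2, and the replicate block 2. The difference between HU and NT and the translation efficiency gave 0 calls in every setting, the replicate block included. With the replicate block the 10 next lower genes were at adjusted p-values of 0.00192 to 0.027, and AMMECR1 (0.00166), MCC (0.0094), CCND1 (0.0133), GBP1 (0.046), NAP1L5 (0.0468) and MET (0.0468) were called higher. Among 7 called genes and 25 others named by their p or by earlier work no direction reversed: of 112 values for the called genes 20 lost the call, all with 1 library left out, and of 400 values for the others 63 gained one. Of the genes named from lists, MT-CO1 and MT-CO3 turned below 0 with 1 library left out (-0.07 and -0.06). RTEL1 rests on 12 to 51 counts per library and ANKRD30B on 13 to 68.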
